A study of Mus musculus with 12 samples.

Results

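The basal keratin Krt5 and the suprabasal keratin Krt10 were each represented by 1 probe, chosen by the gene annotation of the array platform, so 2 of 6774 named genes, and 2 of the 9558 probes of these spotted cDNA arrays, are described. The 12 arrays each compared 2 RNAs of primary keratinocytes of C57Bl/6NCr mice, 1 from cells given an adenovirus for deltaNp63alpha and 1 from cells given an adenovirus for beta-galactosidase (beta-gal), the control, which was therefore transduced too. Cells were kept in 0.05 mM calcium (low calcium) or moved to 0.12 mM (high calcium) for 24 h, and RNA was taken 41 h after transduction. Each calcium level had 3 repeats, and each repeat was hybridised with deltaNp63alpha in Cy5 (forward array) and again with the dyes exchanged (reversed array). The labels call the arrays technical repeats and give no age or number of animals, so p-values may measure technical spread alone. No array set low against high calcium directly, so a calcium effect on Krt5 or Krt10 itself was not measured.

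Keratins are intermediate filament proteins that assemble from a type I and a type II partner. In the epidermis, basal cells make the type II keratin Krt5 with Krt14, and cells that leave the basal layer turn to the type II keratin Krt1 with the type I keratin Krt10. Raised calcium starts differentiation in cultured mouse keratinocytes, and deltaNp63alpha is the main p63 isoform of basal epidermal cells. Neither partner, Krt14 or Krt1, was among the named genes, so neither filament pair could be followed as a pair and both partners are not analysed here.

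Krt5 (Entrez gene 110308) lies on the minus strand of chromosome 15 at chr15:101707069-101712905 and Krt10 (Entrez gene 16661) on the minus strand of chromosome 11 at chr11:99385254-99397449, in the RefSeq annotation of GRCm38.p6. The 250 bases before the start that the RefSeq promoter table gives for each gene, read 5′ to 3′ on the gene's strand, are shown because p63 and basal transcription factors act on such regions. Capitals mark the matches to the motifs searched. The Krt5 window is chr15:101712906-101713155 and ends where the gene span begins. The Krt10 window, chr11:99389365-99389614, lies inside the gene span given above, because the start that the RefSeq promoter table uses for Krt10 is not the outer end of that span. Which start these cells use was not measured.
Krt5: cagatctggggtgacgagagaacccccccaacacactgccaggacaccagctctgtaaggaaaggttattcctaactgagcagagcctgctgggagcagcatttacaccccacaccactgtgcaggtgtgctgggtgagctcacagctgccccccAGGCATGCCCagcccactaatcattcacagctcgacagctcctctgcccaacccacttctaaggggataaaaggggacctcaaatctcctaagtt
Krt10: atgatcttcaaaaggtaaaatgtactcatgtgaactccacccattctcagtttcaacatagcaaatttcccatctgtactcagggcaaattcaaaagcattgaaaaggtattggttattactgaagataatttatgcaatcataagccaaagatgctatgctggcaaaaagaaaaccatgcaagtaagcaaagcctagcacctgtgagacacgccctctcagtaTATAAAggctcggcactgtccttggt
The search took a p53 family half-site (10 letters, both strands), the AP-1 site TGANTCA (both strands) and the TATA box TATAAA (gene strand). The Krt5 window held 1 half-site, which 7.13% of 32851 RefSeq windows of this length also held. The Krt10 window held 1 TATAAA, as did 7.59% of windows, and no half-site. The AP-1 letters were in neither window and in 6.75% of all. The GC content was 56.0% before Krt5 and 39.6% before Krt10, against a median of 52.4%. These matches are a description of the letters, and the arrays did not measure binding.

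Each deposited value is a log2 ratio between the dyes of an array. Which dye is the numerator is not stated. A value was taken to be Cy5 over Cy3, and those of reversed arrays were turned. This reading was chosen with the data known, and the direction is not settled, because in the labels deltaNp63alpha is channel 2 on reversed arrays too, which would favour leaving the signs as deposited. The dye-swap ratio of a repeat is the forward minus the reversed value, divided by 2. Their sum divided by 2 is the shared part, which does not turn with the dye. If the signs were left as deposited, the shared part would be the deltaNp63alpha ratio, so it is given beside the dye-swap ratio for the genes the results turn on. If Cy3 were the numerator and the signs were turned, every dye-swap ratio would keep its size and change its sign. Krt10 would then be higher with deltaNp63alpha. Between 3366 and 9096 probes had a value on an array (35.22% to 95.17%), fewest on low calcium repeat 3 and high calcium repeat 3. The overexpressed gene gave no check of the labels. Its probe, Trp63, had dye-swap ratios of -0.78 and 0.45 in low calcium and of -0.59 and -0.51 in high calcium, and neither level passed the test (adjusted p = 0.919 and 0.446). Its mean shared parts were -0.83 in low and 0.16 in high calcium, and neither passed with signs kept (limma, adjusted p = 0.111 and 0.811). Where on the gene the Trp63 probe lies, and whether it matches the virus transcript, was not tested.

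Read this way, Krt10 was lower with deltaNp63alpha wherever it was measured, and Krt5 was not called at either calcium level. In high calcium Krt10 fell 2.98-fold (log2 ratio -1.57 ± 0.20, SE, n = 2 pairs), while Krt5 differed by 0.11 ± 0.22 on the log2 scale (SE, n = 2 pairs). In low calcium the 1 pair that measured Krt10 was 2.50-fold lower, without a test, and Krt5 was at -0.24 ± 0.22 (SE, n = 2 pairs). In bulk RNA, fewer cells that make Krt10 and less Krt10 RNA per cell cannot be told apart.

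Krt10, the suprabasal keratin, had a value on 6 of the 12 arrays. In low calcium repeat 1 its deposited log2 ratio was -1.25 on the forward and 1.40 on the reversed array. In high calcium repeat 1 the values were -1.52 and 1.15. In high calcium repeat 2 they were -1.68 and 1.94. All forward values were below -1 and all reversed values above 1, so the sign turned with the dye in each of the 3 pairs and the 2 orientations did not overlap. Read as deltaNp63alpha over beta-gal, the 6 array values lay between -1.94 and -1.15. No value was given by the other 6 arrays, which were those of repeat 3 at either level and of repeat 2 in low calcium.

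**Figure D1:**
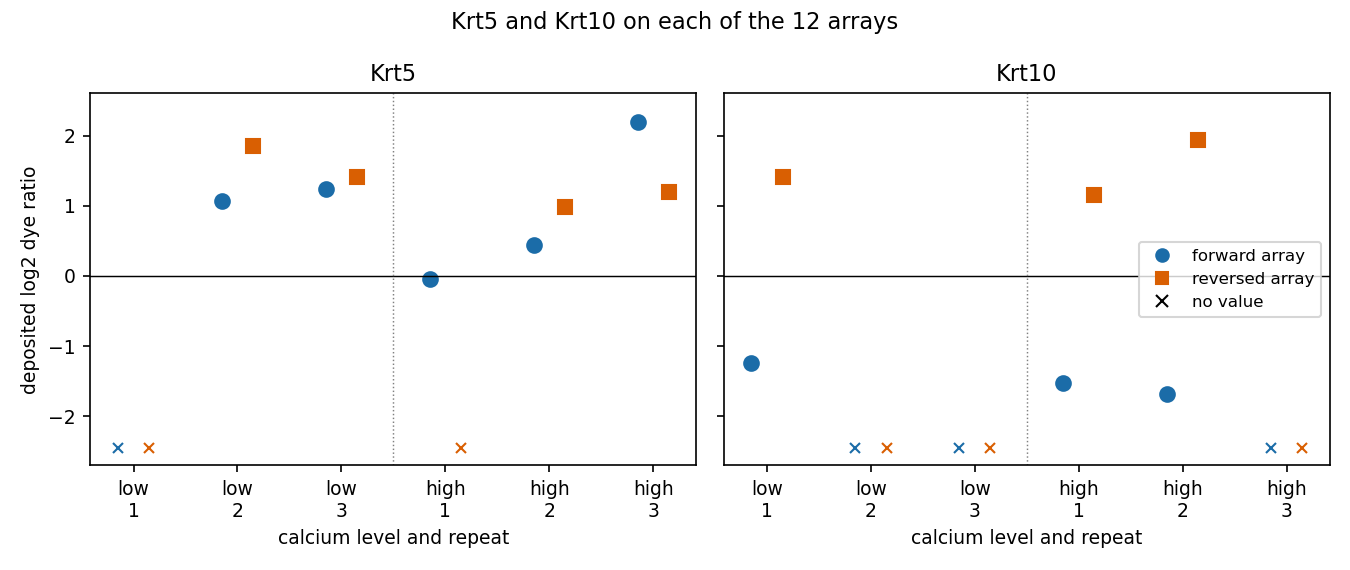
Deposited log2 dye ratio (vertical axis) of Krt5 (left) and Krt10 (right) on each array, by calcium level and repeat (horizontal axis). Circles are forward and squares reversed arrays, and crosses at the foot stand for arrays with no value. Krt10 lies below 0 on its 3 forward and above 0 on its 3 reversed arrays, while Krt5 is above 0 on 8 of its 9 arrays whichever dye deltaNp63alpha carried.

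As dye-swap ratios, Krt10 was at -1.32 in low calcium repeat 1, at -1.34 in high calcium repeat 1 and at -1.81 in high calcium repeat 2. These are 2.50-fold, 2.53-fold and 3.51-fold lower. Krt10 stood 21 from the lowest of 7893 rows (a row is a gene, or a probe without 1 gene name) in the first of these pairs, 14 of 7185 in the second and 10 of 8214 in the third. The shared parts were close to 0, at 0.08, -0.18 and 0.13.

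In high calcium 101 of 7263 rows were called by limma at an adjusted p under 0.05 (1.39%), and 61 of them fell (0.84%). Krt10 was 1 of these falls (adjusted p = 0.00821, lower in 2 of 2 pairs, 95% interval 2.19-fold to 4.05-fold lower). By size it was 6 among the 61 falls. The 2 pairs differed with an SD of 0.33 on the log2 scale. With either of them left out, 1 pair remained, at -1.81 or -1.34, and could not be tested. Fitted on forward arrays alone Krt10 was at -1.60 (adjusted p = 0.100) and on reversed arrays alone at -1.55 (adjusted p = 0.187), and neither passed. With deposited signs kept it was -0.03 (adjusted p = 0.955), and 0 of 7263 rows were called in high calcium under that reading (0%; 1270 rows had an unadjusted p under 0.05 in limma).

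The 1 low calcium ratio of Krt10, -1.32, lay next to the -1.34 of high calcium repeat 1, with repeat 2 lower at -1.81. High minus low calcium was -0.25 on the log2 scale (95% interval -1.02 to 0.52), with 1 low calcium pair and so no test. The interval includes a difference of 1.43-fold upward and of 2.03-fold downward. Over all rows, 0 of 4209 were called for this difference (0%; 107 at an unadjusted p under 0.05 in limma).

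Krt5, the basal keratin, had a value on 9 of the 12 arrays and behaved otherwise between the dyes. In low calcium repeat 2 the deposited log2 ratio was 1.07 on the forward and 1.85 on the reversed array. In low calcium repeat 3 the values were 1.23 and 1.41. Both orientations were thus above 0, where a Cy5 over Cy3 ratio that followed deltaNp63alpha would change sign. In high calcium repeat 2 they were 0.44 and 0.99. In high calcium repeat 3 they were 2.20 and 1.20, and the forward array of high calcium repeat 1 had -0.05 without a reversed value. Low calcium repeat 1 gave none. The forward value was the lower of the pair in 3 of 4 pairs and the higher in high calcium repeat 3.

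The Krt5 dye-swap ratios were -0.39 and -0.09 in low calcium, and -0.28 and 0.50 in high calcium. The 2 high calcium pairs had opposite signs, so the mean of 0.11 rested on repeat 3; without repeat 3 it was -0.28 and without repeat 2 it was 0.50. In low calcium, where 19 of 4646 rows were called (0.409%), Krt5 did not pass (adjusted p = 0.824, 95% interval -0.71 to 0.24). It did not pass in high calcium either (adjusted p = 0.881, interval -0.36 to 0.59). High minus low calcium was 0.35 ± 0.31 (SE; interval -0.32 to 1.02; adjusted p = 0.9997). These intervals leave room for a Krt5 change of 1.50-fold upward in high calcium and of 1.64-fold downward in low calcium.

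The shared part of Krt5 was the larger one. It was 1.46 and 1.32 in the low calcium pairs and 0.71 and 1.70 in the high calcium pairs. The smallest, 0.71, came from high calcium repeat 2, whose arrays had values for 94.69% and 95.17% of probes. The arrays of the other Krt5 pairs had values for 35.22% to 72.97%, whereas every array with Krt10 had at least 82.33%. The contrast between the 2 keratins thus runs along how well the arrays were filled, and a part of filling in it was not tested. Between 0.0365% and 1.56% of the rows of those pairs had a shared part as high or higher. A limma fit over single arrays had a term common to both orientations. It counted the 2 arrays of a pair as nearly separate points (correlation within a pair 0.098), unlike the fits over pairs. The term was 1.15 ± 0.22 for Krt5 (SE, adjusted p = 0.0066) and 0.01 ± 0.16 for Krt10 (SE, adjusted p = 0.972). That term was called in 2660 of 8652 rows (30.7%), so a call for Krt5 is not unusual on these arrays. If the deposited ratios had already been turned, this term would be the deltaNp63alpha ratio. Krt5 would then be 1.39 ± 0.26 higher on the log2 scale in low calcium (SE, n = 2 pairs; adjusted p = 0.0332), where 763 of 4646 rows were called (16.4%) and 305 of them were higher (6.56%). In high calcium it would be 1.21 ± 0.26 (SE; adjusted p = 0.142). Turning or keeping the signs thus decides which of the 2 keratins has the ratio away from 0, and neither choice gave a large ratio for both. The direction for Krt10 further rests on Cy5 being the numerator.

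**Figure D2:**
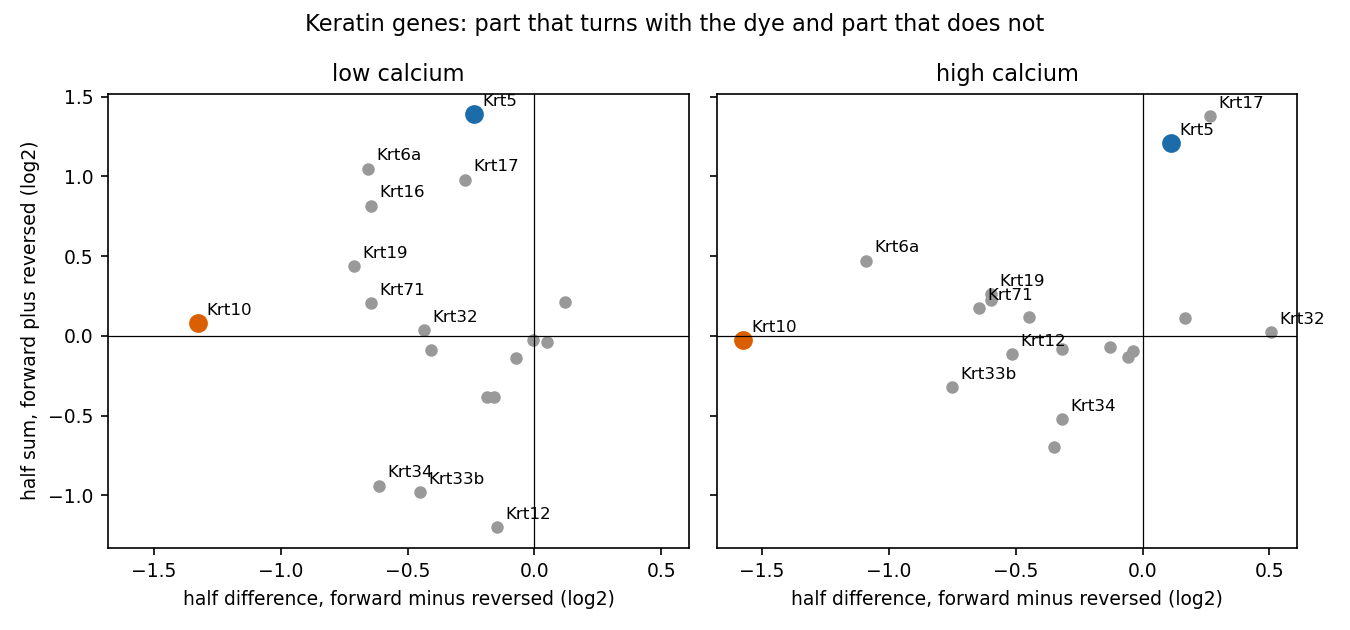
Dye-swap ratio (horizontal axis, log2) against shared part (vertical axis, log2) of each keratin gene with at least 1 complete pair, as means over pairs, in low (left) and high calcium (right). Krt10 (orange) lies far to the left and close to 0 on the vertical axis at both levels, and Krt5 (blue) lies high and close to 0 on the horizontal axis.

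The probes were filled on different arrays, which limits a direct comparison of the 2 keratins. Krt10 had values on both arrays of each of its 3 pairs, and none on the 6 other arrays. That pattern was shared by 1382 (19.6%) of the 7047 probes with values on all of those 6 arrays. Krt5 was missing on both arrays of low calcium repeat 1, which were well filled. Of 1627 probes with values on all 6 arrays of the other 3 repeats, 50 (3.07%) also lacked both of these, and the full Krt5 pattern occurred in 1 probe, its own. High calcium repeat 2 was the only pair with both genes, and there Krt10 minus Krt5 was -1.54 on the log2 scale, a difference of ratios. On the 3 arrays with both, Krt10 minus Krt5 was -1.47, -2.12 and -0.95, each turned to deltaNp63alpha over beta-gal. With 1 pair no exact test could be made.

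Among the 19 keratin genes with a value, Krt10 was the only 1 called on the dye-swap ratio. In high calcium 13 were tested, 1 fell and the median dye-swap ratio was -0.32, with 10 of 13 below 0, against a median of 0.01 over all rows. In low calcium 12 were tested, none was called (limma; 3 had an unadjusted p under 0.05) and the median was -0.21, with 10 below 0, against 0.02 over all rows. The shared parts were spread evenly about 0: they were above 0 in 9 of 18 keratins with a pair in low calcium (median 0.01) and in 9 of 18 in high calcium (median 0.00), against medians of -0.03 and 0.00 over all rows with a pair. With deposited signs kept, 3 of 12 keratins were called in low calcium, Krt5 and Krt17 higher and Krt33b lower, where 6.56% of all rows were higher and 9.86% lower. In high calcium 0 of 13 were called under that reading (limma; 1 had an unadjusted p under 0.05). Cross-hybridisation between keratin cDNAs was not tested.

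Krt17, a type I keratin induced in injured epidermis, had dye-swap ratios of -0.56 and 0.02 in low calcium (mean -0.27 ± 0.21, SE, n = 2 pairs; adjusted p = 0.764) and 0.27 in 1 high calcium pair, with mean shared parts of 0.98 (adjusted p = 0.0365 with signs kept) and 1.38. Krt6a, a type II keratin of injured epidermis, had 1 pair per level, at -0.65 in low and -1.09 in high calcium, with shared parts of 1.05 and 0.47. Krt16, a type I keratin of injured epidermis, had 1 pair, at -0.64 with a shared part of 0.82. Krt6a, Krt16, Krt15 and Krt19 were not tested and are named after their values were seen. Krt15, a basal and follicle stem cell keratin, was at -0.41 in its 1 low calcium pair and -0.35 in its 1 high calcium pair.

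Keratins of other epithelia followed no single direction. Krt4 and Krt13, the pair of oral and oesophageal lining, had ratios of 0.05 and 0.12 in low and of -0.04 and 0.17 in high calcium. Krt8, of simple epithelia, was at -0.06 in high calcium, and Krt19, also of simple epithelia, was at -0.71 and -0.60 in its 1 pair per level. Krt12, of the cornea, was at -0.15 in low calcium, where its shared part was larger, at -1.20 (adjusted p = 0.122 with signs kept). Of the hair keratins, 3 had values below 0 at both levels and did not pass. Krt33b was at -0.45 and -0.75, Krt34 at -0.61 and -0.32, and the inner root sheath keratin Krt71 at -0.64 and -0.65, in low and high calcium in that order. Their shared parts in low calcium were -0.98 for Krt33b (adjusted p = 0.0459 with signs kept), -0.94 for Krt34 (adjusted p = 0.16) and 0.21 for Krt71 (adjusted p = 0.426). Krt23 (-0.19 and -0.32), Krt79 (-0.01 and -0.13) and Krt80 (-0.07 and -0.45) did not pass at either level, and Krt77 was at -0.60 in high calcium.

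**Figure D3:**
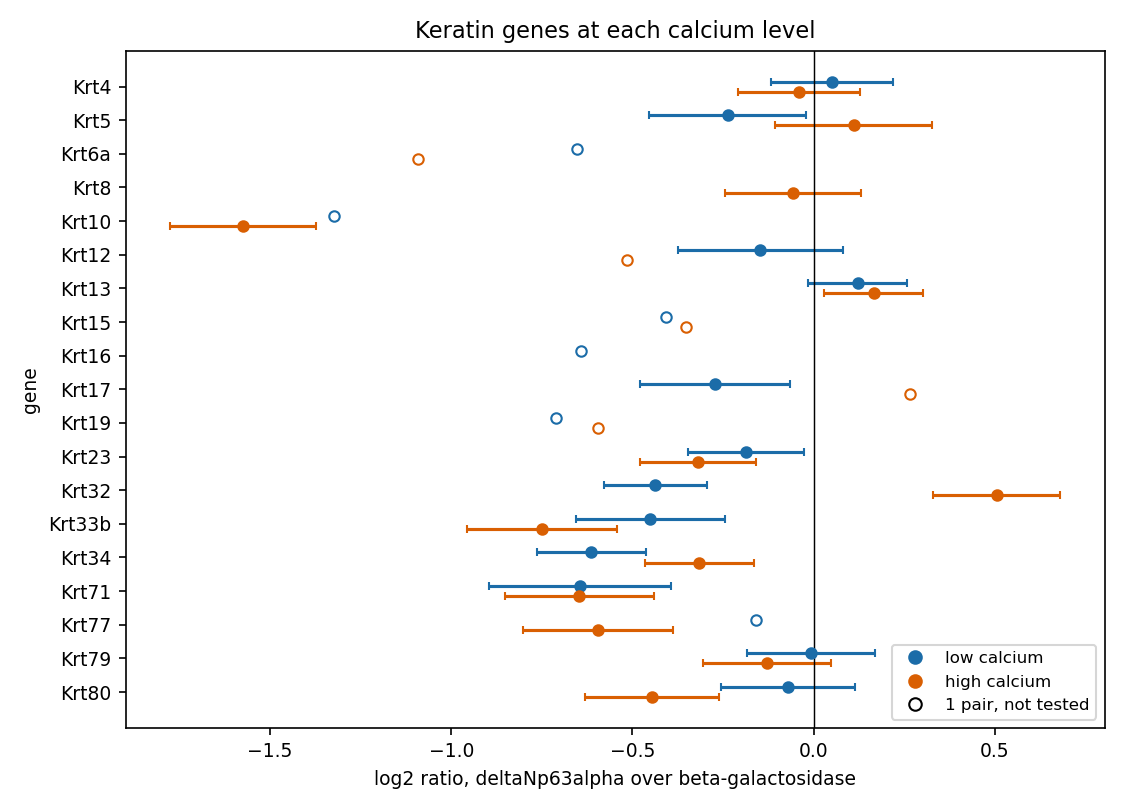
Log2 ratio of deltaNp63alpha over beta-gal (horizontal axis) of the keratin genes (vertical axis), with bars of 1 SE from the fit, in low (blue) and high calcium (orange). Open circles are genes with 1 pair, which were not tested. Krt10 is the lowest at both levels, and the Krt5 values lie on either side of 0.

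Other genes of the same layers were read beside the 2 keratins, and their falls hold for the Cy5 over Cy3 reading alone. With signs kept, none of them was called lower at either level. Of the basal list, 9 genes were tested in low and 13 in high calcium, and Itgb1 and Sdc1 fell at both levels, where 0.387% and 0.84% of all rows fell. Itgb1, the beta 1 integrin that anchors basal cells, was at -1.25 ± 0.18 in low (SE, n = 3 pairs; adjusted p = 0.013) and -0.93 ± 0.18 in high calcium (adjusted p = 0.0314). Sdc1, the proteoglycan syndecan 1, was at -1.22 ± 0.20 in low (SE, n = 2 pairs; adjusted p = 0.0277) and -1.04 ± 0.20 in high calcium (adjusted p = 0.0335). The medians of the list were -0.24 and -0.26. The shared parts had the opposite sign, at 0.86 in low and 0.49 in high calcium for Itgb1 and at 0.98 and 0.18 for Sdc1, and with signs kept neither gene passed (adjusted p = 0.0545 and 0.365 for Itgb1, 0.0566 and 0.748 for Sdc1). Of the 9 genes tested in low calcium, Krt5 and Itgb4 were called higher under that reading, as were 6.56% of all rows. Krt5, the keratin of this layer, was not called on the dye-swap ratio. Of the integrins on the list with values, Itgb1 was called, and Itgb4 and Itga6 were not. Itgb4 was at -0.23 in low and -0.26 in high calcium (limma, adjusted p = 0.775 and 0.699). Itga6 was at 0.06 in high calcium (limma, adjusted p = 0.923) and at -0.27 in its 1 low calcium pair, which was not tested.

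Of the spinous list, to which Krt10 belongs, 4 genes were tested in low and 6 in high calcium, and Krt10 in high calcium was the only call. The high calcium median of that list was 0.19, with 2 of 6 below 0. Of the granular and cornified list, 5 of 7 tested genes fell in high calcium, where 0.84% of all rows fell, and the median was -1.63. They were the filament-bundling protein Flg (-1.93), the envelope precursor Sprr1a (-1.63), Crct1 (-1.43) and the proteases Klk5 (-1.69) and Klk7 (-1.73). The size for Flg rested on repeat 3, as its pairs were at -1.0, -1.1 and -3.6 (SE of the mean 0.40). In low calcium, where 0.387% of all rows fell, 1 of 5 fell, Sprr1a at -2.15 (adjusted p = 0.000419), with a median of -0.94. The shared parts of the 5 genes in high calcium were between 0.19 and 0.34, and with signs kept none of the 7 was called there. In low calcium Sprr1a had a shared part of 0.91 and was called higher with signs kept (adjusted p = 0.0333), so the reading of the dyes turns its direction. Lor, a main protein of the cornified envelope, was at 0.00 in low and -0.15 in high calcium and was not called.

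Genes that hold keratin filaments showed no call on the dye-swap ratio. Of the desmosome, hemidesmosome and plakin list 3 genes were tested in low and 7 in high calcium, with medians of -0.23 and -0.03 (limma; 2 and 0 had an unadjusted p under 0.05). Of the other intermediate filament genes, such as desmin, nestin and the lamins Lmna and Lmnb1, 11 were on the arrays and 8 and 10 were tested in low and high calcium, with medians of 0.08 and 0.10, and none was called (1 and 0 at an unadjusted p under 0.05). With signs kept, Pkp1 and Itgb4 of the first of these lists and Nefl of the second were called higher in low calcium. Of all rows, 6.56% were called higher there under that reading. A log ratio gives no level, so the labelled cell type could not be checked: 7 of 11 keratinocyte markers gave values, and so did 25 of 43 markers of other cell types. Of the markers of fibroblasts, melanocytes, immune cells, endothelium, muscle and hair, 19 were tested in low and 21 in high calcium, with ratios from -0.94 to 0.49 and from -0.76 to 0.51. None of these markers was called (limma; 6 and 3 at an unadjusted p under 0.05). With signs kept, Cdh5 and Ckm of the 19 were called lower in low calcium, where 9.86% of all rows were called lower. Their part in the Krt10 ratio was not tested.

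Of 6699 rows with values on all 6 Krt10 arrays, 4 (0.0597%) were at or below -1 on each of them, a bound chosen after the values were seen. Krt10 and Sprr1a were the 2 named genes among the 4. By Pearson correlation over those 6 arrays, with both genes' values turned, the named genes most like Krt10 among 5207 were Slc35f5 (r = 0.971), Mpp6 (0.961), Brox (0.961), Cnr2 (0.951) and Tars (0.943). These follow the small differences between the arrays and not the size of the ratio: Cnr2 was above 0 on each of the arrays. By the root mean square difference, added after the data were seen, the nearest were Cldn1 (0.29), Endou (0.33), Anxa8 (0.34), Fam25c (0.35) and Defb1 (0.35). Their values lay between -1.91 and -0.78.

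For Krt5 the nearest by correlation over its 9 arrays, among 1160 genes, were Ctnna1 (r = 0.992), Gm12669 (0.992), Rpl19 (0.988), Ccl6 (0.986) and Laptm4b (0.981). The turned values of Rpl19, a ribosomal protein gene, ran from -1.42 to 1.41, above 0 on some arrays and below 0 on others as those of Krt5 did. Both genes of a correlation were read on the same 9 arrays, some forward and some reversed. Krt5 was above 0 on 8 of these as deposited, so turning put its reversed values below 0 and left most forward values above 0. Any gene above 0 on most of these arrays as deposited would tend to correlate highly with Krt5 after turning. The correlations thus cannot separate a shared response from a shared part of the same sign, and are given as a description.

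**Figure D4:**
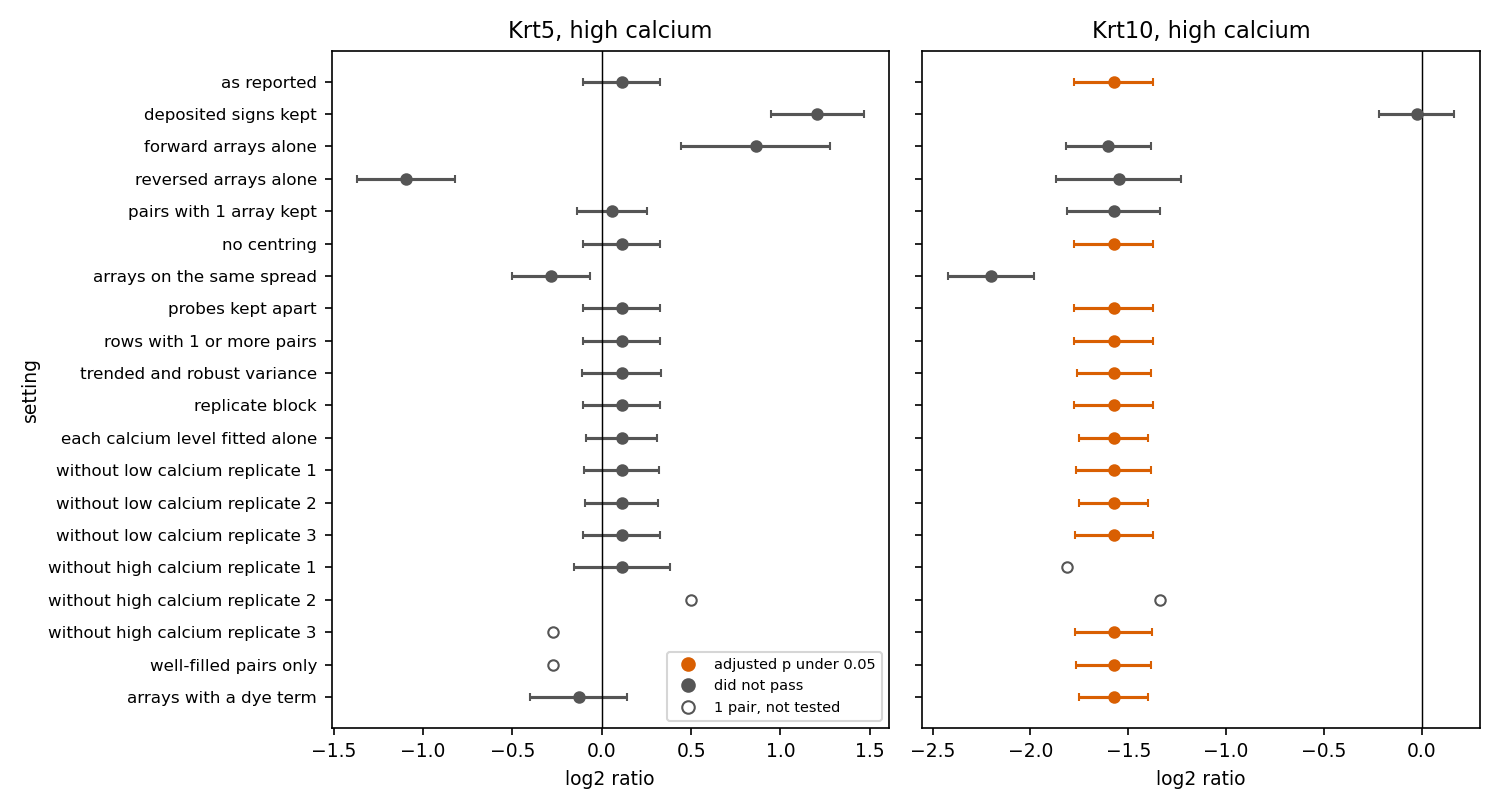
High calcium log2 ratio (horizontal axis) of Krt5 (left) and Krt10 (right) under each setting of the processing (vertical axis), with bars of 1 SE. Orange points passed an adjusted p of 0.05, grey points did not, and open points had 1 pair and no test. Krt10 lies below -1 under each setting with a value except with deposited signs kept, and Krt5 moves to either side of 0. Most settings keep the same 2 complete Krt10 pairs and could not move its ratio.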

How the data were processed

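The deposited values are log2 dye ratios of 12 two-colour arrays. The log base was taken as 2 from the values, and no source used here says how spots were scanned, normalised or filtered. Per the labels' protocols, total RNA was labelled with a Genisphere kit. Each array was centred on its median, which was within 0.0005 of 0 as deposited. Of 9558 probes, the platform annotation gave 7457 a single gene symbol and 481 more than 1, and 1620 are unnamed here. Symbols of 7368 were updated (GRCm38.p6). Probes of a gene were averaged, giving 6774 genes and 2101 unnamed rows.

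Dye-swap ratios of 6 pairs were fitted by lmFit and eBayes of limma 3.58.1 in R 4.3.3, both calcium levels together. A row was tested at a level with at least 2 pairs there, and p-values were adjusted by Benjamini-Hochberg over all rows tested. Every adjusted p in the text is limma's. The fit was tested on simulated data. The simulation gave both arrays of a pair the same dye term, gave all arrays the same spread and built in the turned signs. It was thus no check of the dye reading or of arrays with unequal spread. The members, lists and tests were chosen with earlier results of these data known. Named genes were the 2 members, tested keratins, called list members and the 5 genes most like each member. Trp63, as the overexpressed gene, and Lor, Itga6, Krt6a, Krt15, Krt16, Krt19 and list members called with signs kept were named outside this rule, after their values were seen. Alternatives covered the dye reading, single orientations, incomplete pairs, scaling, filters, variance, the repeat number and left-out repeats. The probes' cDNA sequences were not used here, and the number of arrays limits the precision.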

Additional observations from a re-analysis of the deposited data

Results flagged for a closer look

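Krt32, a type I hair keratin, moved to opposite sides of 0 at the 2 calcium levels. Its dye-swap ratios were -0.45, -0.34 and -0.52 in the 3 low calcium pairs and 0.43 and 0.58 in the 2 high calcium pairs. Krt32 was flagged by a rule that picks keratins with such opposite signs, so the lack of overlap follows from the choice. The deposited values did not turn with the dye in low calcium repeat 1 (-1.31 and -0.41) or repeat 2 (0.29 and 0.96). Its mean shared parts were 0.04 in low and 0.02 in high calcium. The low calcium mean covers shared parts of opposite sign, below 0 in repeat 1 and above 0 in repeat 2, so it does not show that they were small. High minus low calcium was 0.94 on the log2 scale, and it did not pass over all rows (limma, adjusted p = 0.858).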

How the results depend on the processing

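The Krt10 ratio in high calcium was below -1 in every setting that gave it a value except with deposited signs kept, where it was -0.0269. Most of these settings keep the same 2 complete pairs of its 1 probe and could not move the ratio, so they are no check of it. With arrays set to the same spread it was -2.20 (adjusted p = 0.0532), on forward arrays alone -1.60, on reversed arrays alone -1.55, and with incomplete pairs kept -1.57 (adjusted p = 0.601), and none of these values passed. Leaving out a repeat gave -1.81 to -1.34. In low calcium Krt10 was 0.0785 with signs kept and -1.72 at the same spread. Krt5 in low calcium was 1.39 with signs kept, 1.15 on forward arrays and -1.63 on reversed arrays (adjusted p = 0.0252). Krt5 in high calcium was -1.10 on reversed arrays, -0.28 at the same spread, -0.28 on well-filled pairs and -0.13 with a dye term, and -0.28 to 0.50 with a repeat left out. The Krt5 calcium difference was -0.18 with signs kept, -0.29 on forward arrays and -0.18 at the same spread, and -0.0387 to 0.73 with a repeat left out. Krt10 minus Krt5 was -0.58 with signs kept, -2.12 on the forward and -0.95 on the reversed array. The 19 calls in low calcium became 763 with signs kept, 33 on forward and 330 on reversed arrays, 0 with incomplete pairs kept, 0 at the same spread, 4 in rows with all 6 pairs, 51 in rows with 1 or more pairs, 9 with trended and robust variance, 49 with each level alone and 7 with a dye term, and 6 to 51 with a repeat left out. The 101 in high calcium became 0 with signs kept, 0 on forward and 1 on reversed arrays, 0 with incomplete pairs kept, 1 at the same spread, 14 in rows with all 6 pairs, 236 with each level alone and 36 with a dye term, and 33 to 151 with a repeat left out. The 0 for the difference became 1 in rows with 1 or more pairs and 2 with a fixed replicate block, added after the data were seen, and 0 to 1 with a repeat left out. The causes of these changes were not tested. With the replicate block as a random term, 18 and 100 rows were called and Krt10 in high calcium had an adjusted p of 0.00838; it changed no call of either keratin. Deviations of same-numbered pairs correlated at -0.03, -0.11 and 0.20, and those of differently numbered pairs at -0.29 to 0.27. With 3 pairs per level these correlations cannot settle whether the repeat numbers pair the calcium levels.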
